A study of Arabidopsis thaliana with 4 samples.

Results

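The photoperiod flowering genes described here were 10 loci picked by name: *CO* (*CONSTANS*, AT5G15840), its close relatives *COL1* (AT5G15850) and *COL2* (AT3G02380), the *CYCLING DOF FACTOR* genes *CDF1* (AT5G62430), *CDF2* (AT5G39660), *CDF3* (AT3G47500) and *CDF5* (AT1G69570), and *FT* (AT1G65480), *SOC1* (AT2G45660) and *SVP* (AT2G22540). Each of the 4 leaf tables listed 32633 loci and held all 10. Of the 10 genes, 8 had a mean of at least 1 FPKM (fragments scaled to the length of the transcript and to the mapped reads of the library) over the 4 libraries and were tested among 16905 such loci. *CO* and *FT* were below this minimum in the mean, so their values are described without a test.

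The libraries came from leaves of 3-week-old *Arabidopsis* plants of the Columbia-0 (Col-0) ecotype that were given no treatment. Plants were kept in a chamber with 12 h of light and 12 h of darkness, at 21 ± 1 °C by the sample labels. The paper's methods give a slightly higher temperature. WT plants were compared with the *ldl1 ldl2* double mutant, which was made by crossing a T-DNA insertion line of each gene, LDL1 and LDL2 being homologs of a human lysine-specific histone demethylase. *LDL1* was at 4.09 to 5.001 FPKM in all 4 libraries and *LDL2* at 0.281 to 1.04, and since a level per gene also holds reads on either side of an insertion, these values do not check the genotypes. There were 2 biological replicates per genotype, numbered 1 and 2. The sources used here give neither the time of day of each harvest nor whether plants with the same number were grown, harvested or sequenced together.

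In *Arabidopsis*, day length is read through the timing of *CO* expression, which the CDF proteins repress early in the day and which is released when the clock protein GI and the blue light receptor FKF1 mark the CDFs for degradation. CO protein, stable in the light late in a long day, switches on *FT* in leaf phloem companion cells. FT protein travels to the shoot apex, where it acts with FD on *SOC1* and the floral meristem genes, while SVP holds both *FT* and *SOC1* down.

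The libraries stood apart by replicate number rather than by genotype over the tested genes. The correlation across genes, which are not independent replicates, was 0.954 and 0.955 between the genotypes of replicate 1 and of replicate 2, against 0.846 for the WT pair and 0.915 for the *ldl1 ldl2* pair. In what follows a pair of libraries is always given as replicate 1 and then replicate 2, and the mutant pair is that of *ldl1 ldl2*. Summed FPKM ranged from 1008263 to 1054500, and relative depth, read from the step that a single fragment leaves among the lowest values, was 1.01 in WT replicate 2, 0.904 in *ldl1 ldl2* replicate 1 and 1.04 in *ldl1 ldl2* replicate 2, with WT replicate 1 set to 1. Leaf identity was checked with 5 photosynthesis genes (*RBCS1A*, *RCA*, *LHCB2.1*, *PSAD1* and *GAPA*), whose summed level was 40146 and then 17307 FPKM in the WT pair and 32487 and then 20673 FPKM in the mutant pair. The phloem genes, which mark the tissue where *FT* is switched on, summed to between 801 and 915 FPKM. The 4 meristem genes (*STM*, *WUS*, *CLV3* and *KNAT1*) summed to 1.64 FPKM in WT replicate 2 and to at most 0.0619 in the other 3 libraries, with *CLV3* listed at 0 in all 4.

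The members covered a wide range of levels. FPKM is scaled to transcript length, so levels can be set side by side between genes. *SOC1* had the highest mean level over the 4 libraries (102.7 FPKM), followed by *SVP* (78.6), *CDF3* (36.01), *CDF1* (27.0), *COL2* (25.4), *COL1* (21.8), *CDF2* (7.11), *CDF5* (1.75), *CO* (0.424) and *FT* (0.196). Only *SVP* over *CDF3* and *CDF2* over *CDF5* were neighbours in this order whose ranges over the libraries did not overlap. *COL1* exceeded *CDF2*, and *CO* exceeded *FT*, in each of the 4 libraries although their ranges overlapped. The order of the remaining neighbours changed between libraries.

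**Figure D1:**
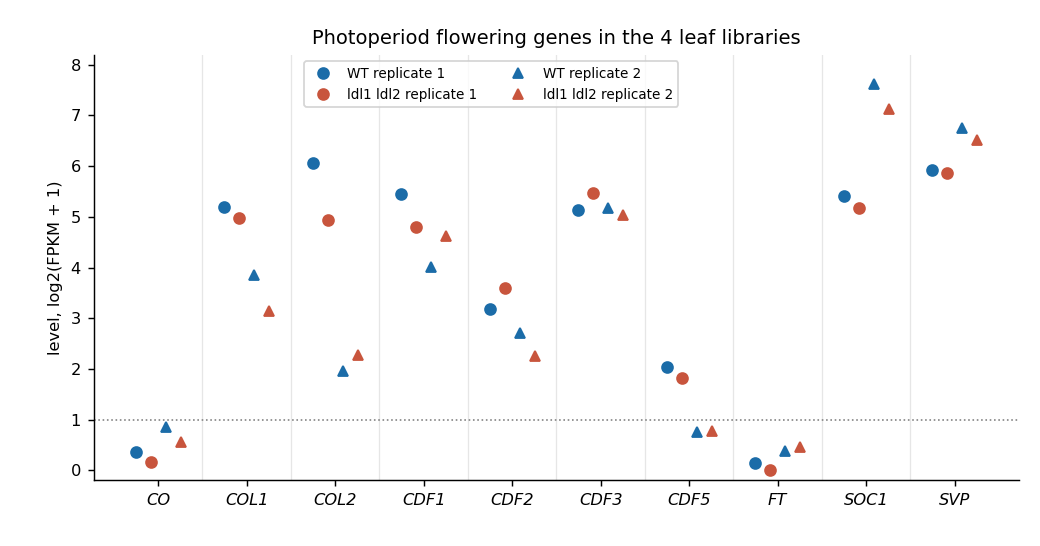
Level of each of the 10 photoperiod genes as log2(FPKM + 1), 1 point per library; circles are replicate 1, triangles replicate 2, blue WT plants and red *ldl1 ldl2*, and the dotted line marks 1 FPKM. Circles and triangles separate for 9 of the 10 genes, all but *CDF3*, and *COL2* spans the range from 2.89 to 65.5 FPKM.

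The first question was whether libraries of the same genotype gave the same levels in both replicates. Between the replicate numbers, *SOC1* and *SVP* were higher in replicate 2, and *COL1*, *COL2*, *CDF2* and *CDF5* were lower. These were 2 of the 8 tested members called higher and 4 of 8 called lower by limma at a Benjamini-Hochberg adjusted p under 0.05, where 13.2% of all tested genes were called higher and 10.7% lower. *CDF1* and *CDF3* were not called. The median difference of the 8 members was -0.86 on the log2 scale, against 0.14 over all tested genes. Because RNA came from whole leaves, fewer cells of a type and less RNA per cell cannot be told apart for any gene. The 4 called lower include both close relatives of *CO* and 2 of its 4 *CDF* repressor genes.

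*COL2* encodes a B-box zinc finger protein close to CO and lies on chromosome 3 from 487069 to 489467 (TAIR10.1). It was measured at 65.5 FPKM in WT replicate 1 and 2.89 in WT replicate 2, and at 29.5 and 3.82 FPKM in *ldl1 ldl2* replicates 1 and 2. Both replicate 1 libraries were thus above both replicate 2 libraries, by 22.6-fold in WT plants and 7.73-fold in *ldl1 ldl2*. The log2 difference of replicate 2 from replicate 1 was -3.38 (SE 0.31, limma adjusted p = 8.13e-06), the largest in size among the members. *COL2* overlaps 2 genes on the opposite strand, AT3G02370 by 771 bases and AT3G02390 by 688 bases, whose levels stayed between 1.65 and 5.20 FPKM.

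*COL1* lies next to *CO* on chromosome 5, at 5176091 to 5177897, with 3005 bases between the genes. Its level was 35.6 FPKM in WT replicate 1 and 13.4 in WT replicate 2, and 30.5 and 7.89 FPKM in *ldl1 ldl2* replicates 1 and 2. The replicate numbers did not overlap, and the fall was 2.66-fold in WT plants and 3.86-fold in *ldl1 ldl2*, a log2 difference of -1.59 (SE 0.25, limma adjusted p = 0.000539). *CO* itself, at 5170162 to 5173085 on the same chromosome, encodes the activator of *FT* and had the opposite order of values. It was measured at 0.285 and then 0.810 FPKM in the WT pair and 0.126 and then 0.476 FPKM in the mutant pair, so that replicate 2 was 2.84-fold higher in WT plants and 3.78-fold higher in *ldl1 ldl2*. *CO* is overlapped over 1967 bases by AT5G15843, a protein-coding gene on the opposite strand that had no listed values. Whether reads of that gene entered the *CO* values was not tested.

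These *CO* values rested on few fragments. From the size of a single-fragment step, and with the shorter annotated mRNA of 1901 bases, they corresponded to about 7, 21, 3 and 13 fragments in WT replicates 1 and 2 and *ldl1 ldl2* replicates 1 and 2. The 95% exact Poisson intervals, which cover counting error only, were 2.81 to 14.4 and 13.0 to 32.1 in WT plants and 0.619 to 8.77 and 6.92 to 22.2 in *ldl1 ldl2*. The intervals of the replicate numbers overlapped slightly in both genotypes. With the longer mRNA of 2691 bases the estimates were 11, 31, 4 and 19 fragments, and the intervals did not overlap within either genotype. *CO*, *COL1* and *COL2* share exact stretches of at most 28 bases, shorter than a read of 100 bases, and no window of 100 bases of any of the 10 mRNAs was found in another gene's mRNA.

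The *CDF* genes encode DOF transcription factors that bind the *CO* and *FT* promoters in *Arabidopsis*. *CDF5*, on chromosome 1 at 26161528 to 26163715, was measured at 3.09 and then 0.682 FPKM in the WT pair and 2.52 and then 0.704 FPKM in the mutant pair. Replicate 1 was higher by 4.53-fold in WT plants and 3.58-fold in *ldl1 ldl2*, without overlap, and the log2 difference was -1.16 (SE 0.27, limma adjusted p = 0.00773). *CDF2*, on chromosome 5 at 15878698 to 15881537, was measured at 8.03 and then 5.57 FPKM in the WT pair and 11.1 and then 3.77 FPKM in the mutant pair. Its log2 difference was -0.90 (SE 0.27, limma adjusted p = 0.0288), and the separation was wider in *ldl1 ldl2* (2.94-fold) than in WT plants (1.44-fold). This difference between the genotypes was not tested.

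*CDF1*, the founding member of the group, lies on chromosome 5 at 25069093 to 25071111. Its level was 42.6 and then 15.03 FPKM in the WT pair and 26.9 and then 23.7 FPKM in the mutant pair. Both replicate 1 libraries were the higher ones, but by 2.84-fold in WT plants and 1.14-fold in *ldl1 ldl2*, and the log2 difference of -0.81 (SE 0.30, 95% interval -1.46 to -0.16) missed the threshold (limma adjusted p = 0.0674). *CDF3*, on chromosome 3 at 17503883 to 17506124, had the smallest log2 difference of the 8 tested members. It was measured at 34.2 and then 35.0 FPKM in the WT pair and 43.0 and then 31.9 FPKM in the mutant pair, with a log2 difference of -0.19 (SE 0.25, 95% interval -0.74 to 0.35, limma adjusted p = 0.605). Among the tested genes outside the lists, the 3 with the centred log2 profile nearest to that of *CDF1* over the 4 libraries were *BGAL8*, AT4G25780 and *DOT3*, with summed absolute differences of 0.0767, 0.124 and 0.152.

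*SOC1*, a MADS-box floral integrator, lies on chromosome 2 at 18807505 to 18811125. It was measured at 41.7 and then 195 FPKM in the WT pair and 35.3 and then 139 FPKM in the mutant pair. Both replicate 2 libraries were well above both replicate 1 libraries, by 4.69-fold in WT plants and 3.92-fold in *ldl1 ldl2*, a log2 difference of 2.07 (SE 0.25, limma adjusted p = 6.74e-05). *SVP*, a MADS-box repressor of flowering on the same chromosome at 9579647 to 9583901, was measured at 59.3 and then 107 FPKM in the WT pair and 57.7 and then 90.7 FPKM in the mutant pair. It rose with *SOC1*, though less, by 1.80-fold and 1.57-fold (log2 difference 0.74, SE 0.25, limma adjusted p = 0.0454). The call for *SVP* was lost when libraries were scaled to an equal median, where its difference was 0.59, and also with a pseudocount of 0.1.

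*FT*, the mobile flowering signal, lies on chromosome 1 at 24331373 to 24333999 and was near the limit of detection. It was listed at 0.102 and then 0.298 FPKM in the WT pair and 0 and then 0.385 FPKM in the mutant pair. With the shorter annotated mRNA of 856 bases these values corresponded to about 1, 3, 0 and 4 fragments. A count of 0 allows up to 3.69 fragments by the 95% exact Poisson interval, and the intervals of all 4 libraries overlapped. Such an overlap is not a test of a difference. Both replicate 2 values were above both replicate 1 values, and with so few fragments this order was not tested. Its close relative *TSF*, which has a similar role, was listed at 0 in all 4 libraries.

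**Figure D2:**
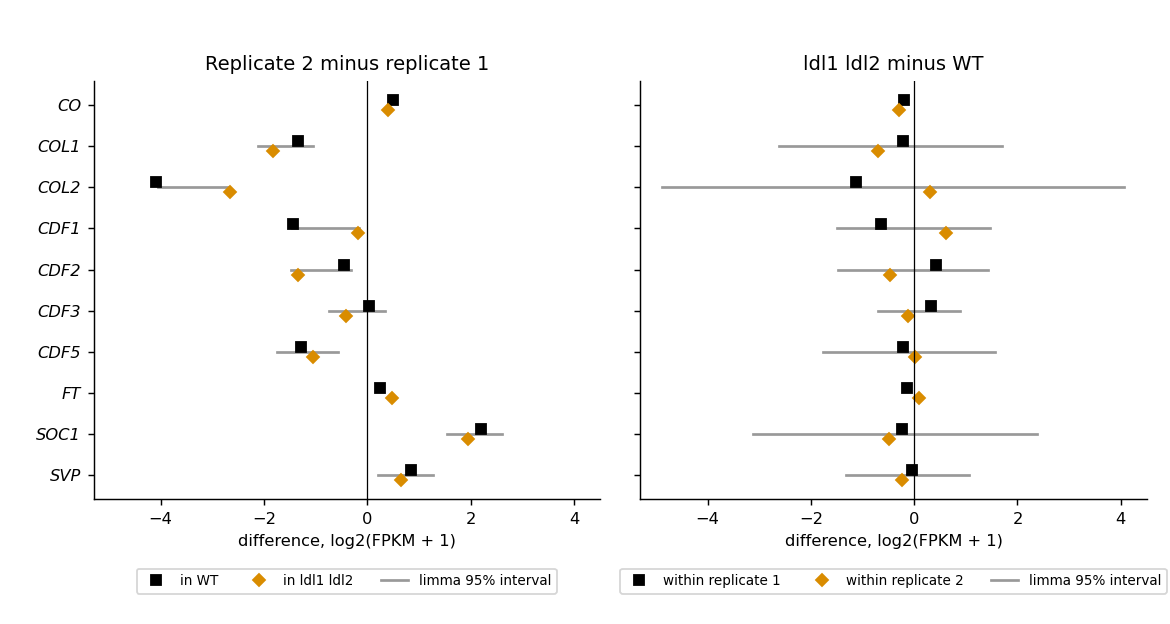
Differences in log2(FPKM + 1) for the 10 genes, with replicate 2 minus replicate 1 on the left (squares in WT plants, diamonds in *ldl1 ldl2*) and *ldl1 ldl2* minus WT on the right (squares within replicate 1, diamonds within replicate 2); grey lines are limma 95% intervals for the 8 tested genes. On the left *COL2* reaches -4.09 in WT plants and *SOC1* 2.20, while every interval on the right spans 0. The intervals on the right come from the fit without a replicate term.

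The replicate numbers did not overlap for 9 of the 10 genes and for 7 of the 8 tested, where 65.1% of all tested genes also did not overlap. A difference of at least 2-fold in both genotypes on the log2(FPKM + 1) scale was seen in 1 of 8 members upward (*SOC1*) and in 3 of 8 downward (*COL1*, *COL2* and *CDF5*), against 5.02% and 4.34% of all tested genes. The members were chosen with earlier results of these data known, so these shares describe them and do not test them. The calls depended on having all 4 libraries. Without WT replicate 1 only *COL2* was called and without *ldl1 ldl2* replicate 1 only *COL2* and *SOC1*, while without WT replicate 2 or *ldl1 ldl2* replicate 2 none of the 8 was called. Those fits had 3 libraries and no genotype term, with 1 residual degree of freedom as in the fit of all 4 libraries. The direction of the 8 log2 differences was the same in each. Over all tested genes 55.3% of the calls were upward, and 41.6% when libraries were scaled to an equal median.

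Short sequence elements of clock-regulated genes were searched on both strands in the 250 bases before each annotated gene start, in 26693 *Arabidopsis* genes of the RefSeq annotation of TAIR10.1. The elements were the evening element AAAATATCT, the CCA1-binding site AAAAATCT and the G-box CACGTG, which do not contain one another. Of the 10 members, 1 held the evening element (*COL2*), 2 the CCA1-binding site (*CDF5* and *SOC1*) and 1 the G-box (*CDF2*). Over all genes searched the shares were 2.4%, 6.74% and 6.57%. The sequences of the 4 members that held an element are printed so that each element can be seen in place. For *COL2*, whose upstream window also lies in neighbouring genes, only 30 bases around the element are given (chr3:489637-489666, minus strand). For the others the whole window is given: *CDF5* at chr1:26163716-26163965 (minus strand), *SOC1* at chr2:18811126-18811375 (minus strand) and *CDF2* at chr5:15878448-15878697 (plus strand). Each reads 5′ to 3′ on the strand of its gene, with the element in capitals.
*COL2* site: ataagttaccAAAATATCTtcttgttacta
*CDF5* upstream: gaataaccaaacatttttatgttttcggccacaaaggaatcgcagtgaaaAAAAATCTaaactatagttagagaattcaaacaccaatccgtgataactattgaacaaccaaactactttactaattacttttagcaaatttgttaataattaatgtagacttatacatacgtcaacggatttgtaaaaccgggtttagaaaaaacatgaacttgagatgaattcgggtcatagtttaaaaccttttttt
*SOC1* upstream: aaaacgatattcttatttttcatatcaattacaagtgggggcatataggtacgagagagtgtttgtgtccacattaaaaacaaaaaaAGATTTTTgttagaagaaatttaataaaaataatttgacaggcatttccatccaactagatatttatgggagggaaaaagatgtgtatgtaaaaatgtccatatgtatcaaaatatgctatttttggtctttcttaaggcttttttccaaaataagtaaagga
*CDF2* upstream: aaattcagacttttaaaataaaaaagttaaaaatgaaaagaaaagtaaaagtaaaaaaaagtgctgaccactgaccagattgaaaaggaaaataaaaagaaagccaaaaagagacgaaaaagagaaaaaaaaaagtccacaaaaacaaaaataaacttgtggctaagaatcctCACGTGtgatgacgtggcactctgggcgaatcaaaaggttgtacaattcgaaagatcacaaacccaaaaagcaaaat
The element ended 181 bases before the gene start in *COL2*, 193 in *CDF5*, 156 in *SOC1* and 72 in *CDF2*. In *SOC1* it lies on the opposite strand and is therefore read as its reverse complement. A match is a description of the letters and not of binding.

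*CDF5* is overlapped over 1241 bases by a non-coding RNA gene on the opposite strand, AT1G69572, which moved the other way. AT1G69572 was measured at 11.4 and then 16.6 FPKM in the WT pair and 10.8 and then 19.8 FPKM in the mutant pair. Its level was 3.70 and 4.28 times that of *CDF5* in replicate 1 of WT plants and *ldl1 ldl2*, and 24.4 and 28.1 times in replicate 2. The rise of the antisense RNA alone, a log2 difference of 0.66 (SE 0.24), did not pass the threshold (limma adjusted p = 0.0655). The libraries were stranded, but no source used here says whether strand was used in counting, so reads of the pair may not be fully separated. *COL1* is covered along its whole length by another opposite-strand RNA gene, AT5G15845, which was listed between 0.035 and 0.0914 FPKM.

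**Figure D3:**
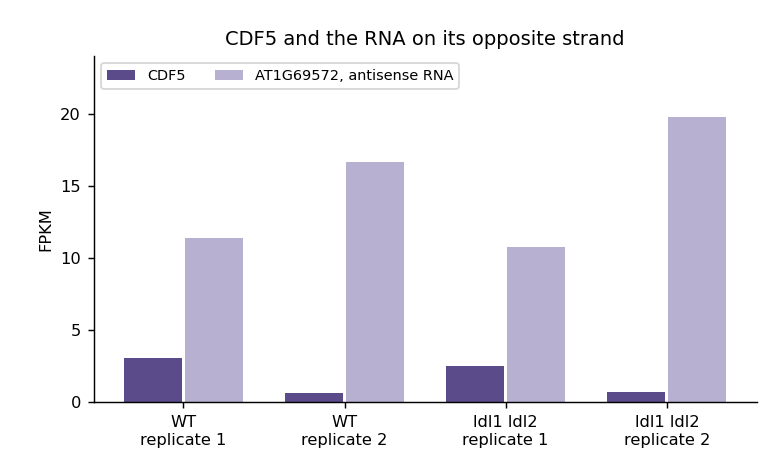
FPKM of *CDF5* (dark bars) and of AT1G69572, the RNA gene on its opposite strand (light bars), in each of the 4 libraries. *CDF5* falls from 3.09 to 0.682 and from 2.52 to 0.704 FPKM between replicates 1 and 2 of WT plants and *ldl1 ldl2*, and AT1G69572 rises from 11.4 to 16.6 and from 10.8 to 19.8.

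The genes that act on *CO*, the CDFs and *FT* were counted in the same comparison. Of 48 other photoperiod pathway genes, 39 were tested, of which 8 were called higher in replicate 2, 2 lower and 29 were not called. Over all tested genes 13.2% were called higher and 10.7% lower, the shares to set beside this count and those of the lists that follow. Among the largest changes were those in the genes whose products remove the CDFs. *FKF1* was measured at 0.135 and then 72.2 FPKM in the WT pair and was listed at 0 and then 79.3 FPKM in the mutant pair, a log2 difference of 6.17 (SE 0.24, limma adjusted p = 4.86e-09). *GI* was measured at 1.69 and then 49.7 FPKM in the WT pair and 2.60 and then 48.6 FPKM in the mutant pair (log2 difference 4.01, SE 0.25, limma adjusted p = 2.99e-07). Both genes were low in replicate 1 and high in replicate 2 of each genotype, the order opposite to that of *CDF2* and *CDF5*. The related receptor genes *ZTL* and *LKP2* were not called, with log2 differences of 0.38 and 0.53.

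Among the other *COL* genes 1 of 4 was called. *COL9*, a repressor of *CO* and *FT*, was at 0.476 and then 67.5 FPKM in the WT pair and 0.419 and then 59.1 FPKM in the mutant pair, a log2 difference of 5.47 (SE 0.24, limma adjusted p = 1.28e-08). *COL3*, *COL4* and *COL5* had levels of 176 to 257 FPKM and log2 differences between -0.16 and 0.19. Of the 4 *FBH* genes, bHLH activators of *CO* transcription, only *FBH3* was called, at 28.4 and then 89.8 FPKM in the WT pair and 13.1 and then 41.5 FPKM in the mutant pair (log2 difference 1.61, SE 0.24, limma adjusted p = 0.000395). Of 3 further *CDF*-like DOF genes 1 was tested and it was not called.

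Of 11 photoreceptor and ubiquitin ligase genes that set the level of CO protein, 2 were called higher and 1 lower, near the shares over all tested genes (13.2% and 10.7%). *CRY2*, the blue light receptor that stabilises CO, rose by 1.11 on the log2 scale, *HOS1*, an E3 ligase acting on CO, rose by 0.92, and *SPA3*, a partner of the COP1 ligase, fell by 1.13 (SE 0.25, 0.24 and 0.26, limma adjusted p = 0.00691, 0.0157 and 0.00674). *COP1*, *PHYA* and *PHYB* were not called. Among 8 NF-Y and B-box partners of CO, 6 were tested and only *BBX19*, whose protein binds CO and limits *FT* induction, was called, with a fall of 1.11 (SE 0.25, limma adjusted p = 0.00618). Among 6 AP2-like and RAV repressors of *FT*, 5 were tested and only *TOE2* was called, with a rise of 1.03 (SE 0.25, limma adjusted p = 0.00907).

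Of 8 relatives, partners and floral targets of *FT*, 4 were tested and *FUL* was called. *FUL*, a MADS-box gene acting beside *SOC1*, was at 1.09 and then 10.9 FPKM in the WT pair and 0.554 and then 8.32 FPKM in the mutant pair, and rose by 2.55 on the log2 scale (SE 0.25, limma adjusted p = 1.37e-05). Floral organ markers were also measured, of which *SEP3* was called higher in replicate 2 (log2 difference 2.18, SE 0.28, limma adjusted p = 0.000131). The 4 floral organ genes (*AP3*, *PI*, *AG* and *SEP3*) summed to 0.602 and then 10.7 FPKM in the WT pair and 2.78 and then 4.89 FPKM in the mutant pair. *AP1* was listed at 3.46 FPKM in WT replicate 2 and at 0 in the other 3 libraries, the library that also held the highest meristem sum. In the mutant pair *SEP3* rose from 0.0969 to 3.13 FPKM, *PI* went from 1.13 to 0.210 FPKM and *AG* from 1.30 to 1.17 FPKM. The part of floral or apical tissue in the *SOC1* and *FUL* values was not tested.

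The 9 clock genes examined were all called, 6 higher and 3 lower in replicate 2. The morning genes fell: *LHY* was at 22.9 and then 0.236 FPKM in the WT pair and 8.92 and then 0.380 FPKM in the mutant pair, and *CCA1* was at 50.4 and then 3.85 FPKM in the WT pair and 16.6 and then 2.44 FPKM in the mutant pair. Genes known to peak later in the day rose, with *ELF4* at 0.328 and then 131 FPKM in the WT pair and 0.526 and then 147 FPKM in the mutant pair. The log2 differences were -3.56 for *LHY*, -2.88 for *CCA1* and 6.61 for *ELF4* (SE 0.32, 0.28 and 0.24, limma adjusted p = 6.77e-06, 1.25e-05 and 3.2e-09). *COL1*, *COL2* and *CDF1* are known from published time courses as genes with a peak near dawn, like *CCA1* and *LHY*. Among the members *CDF1* and *CDF3* were not called (limma adjusted p = 0.0674 and 0.605), and no time course was measured here. The photosynthesis genes moved in the same direction as *COL1*, *COL2* and *CDF5*, with 3 of 5 called lower in replicate 2 and none higher. Of 5 reference genes *UBC9* was called lower and the other 4 were not called. The part of the clock genes, of harvest time and of leaf makeup in the members' differences was not tested.

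**Figure D4:**
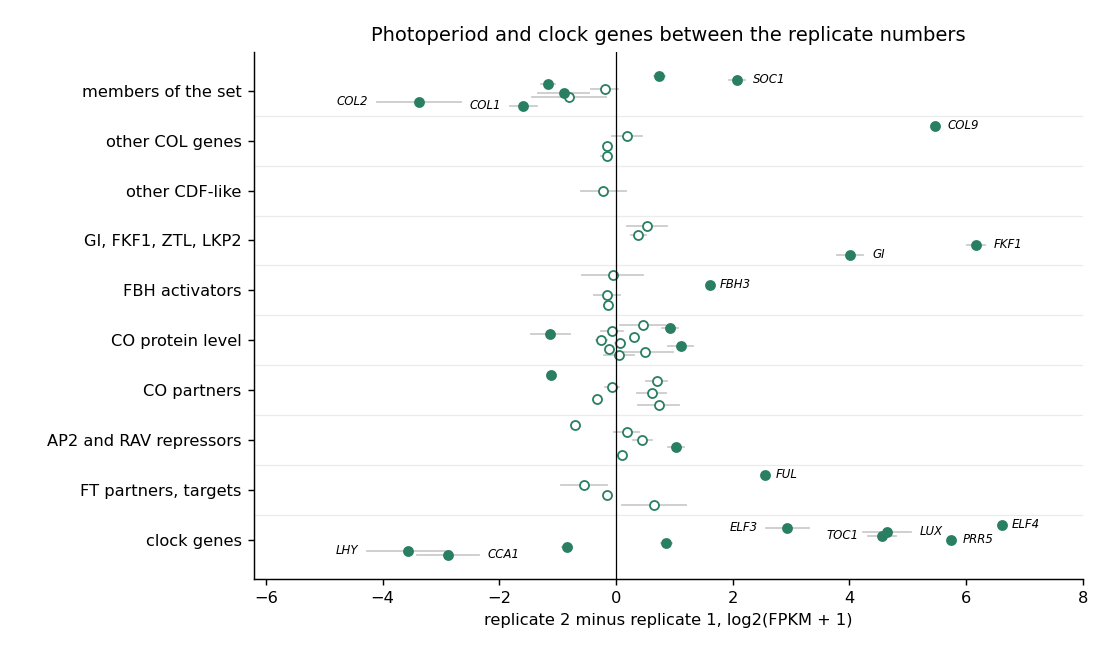
Replicate 2 minus replicate 1 in log2(FPKM + 1) for each tested gene of the photoperiod lists and the clock, 1 point per gene, filled where limma's adjusted p was under 0.05; grey lines join the difference in WT plants and in *ldl1 ldl2*. *FKF1*, *COL9*, *GI* and the later clock genes reach 4.01 to 6.61 except for *ELF3* and *PRR7*, and *COL2*, *LHY* and *CCA1* lie at -3.38, -3.56 and -2.88.

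The second question was whether the members differed between the genotypes. None of the 8 tested members was called, nor was any of the 16905 genes (0%), by limma without a replicate term. At an unadjusted p under 0.05 there were 0 members and 394 genes in all. Genotype ranges overlapped for all 10 members, where 21.5% of tested genes had ranges that did not overlap. No member differed by at least 2-fold in the same direction in both replicate numbers, against 1.54% of tested genes. The sign of the genotype difference was opposite in the 2 replicate numbers for 6 of the 10 members and 5 of the 8 tested, against 48.8% of tested genes.

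The spread within each genotype was wide beside the difference between their means. *SOC1* was at 118 ± 109 FPKM in WT plants and 86.9 ± 73.0 in *ldl1 ldl2* (SD, n = 2 each). Its log2 difference was -0.36 with a 95% interval from -3.11 to 2.39 (limma adjusted p = 1.00), and it was lower in *ldl1 ldl2* by 0.23 within replicate 1 and 0.49 within replicate 2. *COL1* was at 24.5 ± 15.7 and 19.2 ± 16.0 FPKM, with within-replicate differences of -0.22 and -0.69 and a pooled difference of -0.45 (95% interval -2.61 to 1.70). *SVP* was the third tested member with a lower value in *ldl1 ldl2* in both replicate numbers, by 0.04 and 0.23, and *CO*, which was not tested, was lower by 0.19 and 0.29. These 4 were the members whose 2 within-replicate differences had the same sign.

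*COL2* was lower in *ldl1 ldl2* by 1.12 within replicate 1 and higher by 0.31 within replicate 2, with means of 34.2 ± 44.3 and 16.7 ± 18.2 FPKM. *CDF1* was lower by 0.65 within replicate 1 and higher by 0.62 within replicate 2. *CDF2* went the other way, higher by 0.42 and then lower by 0.46, as did *CDF3*, higher by 0.32 and then lower by 0.13. The 4 *CDF* genes therefore showed no common direction between the genotypes, with pooled log2 differences between -0.10 and 0.10 and intervals that reached at least 0.69 in each direction. Intervals of this width do not show that the genotypes were alike.

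None of the 39 other pathway genes tested was called between the genotypes by limma without a replicate term. At an unadjusted p under 0.05 there were 2 of the 39, against 394 of the 16905 tested genes. A difference of at least 2-fold in the same direction within both replicate numbers was seen in 2 of the 39 (*TEM2* and *FBH3*), against 1.54% of tested genes. *TEM2*, a RAV repressor of *FT*, was at 67.6 and then 43.2 FPKM in the WT pair and 196 and then 115 FPKM in the mutant pair (log2 difference 1.46, 95% interval 0.31 to 2.61, with 1.52 within replicate 1 and 1.39 within replicate 2). *AGL24*, a MADS-box partner of SOC1, was at 21.1 and then 10.5 FPKM in the WT pair and 6.36 and then 5.60 FPKM in the mutant pair (log2 difference -1.19, 95% interval -2.28 to -0.11, with -1.59 and -0.80 within the replicate numbers). For both genes the genotypes did not overlap, as for 21.5% of tested genes, and the adjusted p from limma was 1.00. *FBH3* was lower in *ldl1 ldl2* by nearly the same amount in each pair, with log2 differences of -1.06 within replicate 1 and -1.10 within replicate 2, although its genotype ranges overlapped (pooled difference -1.08, 95% interval -3.25 to 1.09, limma adjusted p = 1.00).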

How the data were processed

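Leaf mRNA was measured in 4 libraries, 2 of WT plants and 2 of *ldl1 ldl2*. Per the paper's methods, stranded libraries were sequenced as 100 bp read pairs, mapped with TopHat2 and Bowtie2, and quantified with Cufflinks. The submitters' processing notes name TAIR10 and Trimmomatic 0.33, and gave no other version. FPKM values, 1 table for each library, were deposited by the authors. FPKM are not counts, so no count test was run, and a listed 0 can be a failed estimate.

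Values were used as deposited, as log2(FPKM + 1), for loci with a mean of at least 1 FPKM. A fold on this scale understates changes of low genes, and folds in the text are ratios of FPKM unless named as log2. limma 3.58.1 in R 4.3.3 was fitted over all 16905 tested loci with a mean-variance trend, two-sided, with Benjamini-Hochberg adjustment and a threshold of 0.05. The fit for genotype had no other term, and the fit for replicate number had genotype as a term. With 2 against 2 libraries an exact permutation test cannot go below p = 0.3333, so none was used. Because harvests are not described, p-values measure only the spread between these libraries. The step of a single fragment was estimated from the lowest values of genes with 1 annotated mRNA, and estimated fragments carry the error of that step and of the mRNA length.

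RefSeq's TAIR10.1 genome gave positions and sequences, and 31893 loci were matched to it by locus tag. *CDF5* and some symbols (*TOE1*, *TEM2*, *FUL*) are common names for loci that RefSeq labels otherwise or only by locus. The members and gene lists were chosen with earlier results of these data known. All members are named, and other list genes are the up to 4 with the smallest p in the replicate comparison, apart from genes added after their values were seen (*AP1*, *ZTL*, *LKP2*, *TSF*, *COL3* to *COL5*, *COP1*, *PHYA*, *PHYB*, *CLV3*, *LHY*, *CCA1*, *PRR7*, *ELF3*, *FBH3* between genotypes, *LDL1*, *LDL2*, the antisense genes). The lists were other *COL* genes, *CDF*-like genes, GI and its receptors, FBH activators, CO protein stability, CO partners, *FT* repressors, *FT* partners and targets, the clock, and leaf, phloem, meristem, flower, seed and reference markers. Phloem markers had 1 of 7 genes called by replicate number (*APL*, lower), and the 2 seed genes summed to at most 0.13 FPKM. The fits were also run on simulated data, with the outcome not reported here. Alternatives were a pseudocount of 0.1, no filter, equal medians, no trend, each library left out, a replicate block, no genotype term and a 1.5-fold limit.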

Additional observations from a re-analysis of the deposited data

Results flagged for a closer look

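*CDF3* moved in opposite directions between the replicate numbers in the 2 genotypes. Replicate 2 minus replicate 1 on the log2(FPKM + 1) scale was 0.0316 in WT plants and -0.42 in *ldl1 ldl2*, each from 1 pair of libraries. This difference between the genotypes was not tested. *CDF3* was also the one member whose replicate numbers overlapped. No group had enough libraries for a search for outlying samples.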

How the results depend on the processing

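With a replicate block, 348 of the 16905 tested genes were called between the genotypes instead of 0. None of the 8 tested members was among them, a number too small to judge against that share. Of the 39 other pathway genes 3 were called with the block: *TEM2* (log2 difference 1.46, SE 0.25, limma adjusted p = 0.00605), *AGL24* (-1.19, SE 0.26, limma adjusted p = 0.0335) and *FBH3* (-1.08, SE 0.24, limma adjusted p = 0.0378). The replicate numbers share only a number in the labels, with 2 pairs, so the block was left out of the main genotype fit. The replicate comparison did rest on this same model, since it held both genotype and replicate number as terms. The replicate differences of the 2 genotypes correlated at 0.726 across genes. With 1 library left out, 0 to 3 genes were called. The sign of each member's genotype difference then turned in at least 1 fit, with log2 differences of -1.37 to 0.46 for *COL1*, -2.45 to 1.64 for *COL2*, -0.73 to 0.71 for *CDF1*, -0.69 to 0.65 for *CDF2*, -0.11 to 0.31 for *CDF3*, -0.74 to 0.54 for *CDF5*, -1.46 to 0.74 for *SOC1* and -0.55 to 0.28 for *SVP*. In those fits 1 library stood against 2 without a replicate term, so part of the replicate difference entered each genotype difference. *SOC1*, *COL1* and *SVP* were lower in *ldl1 ldl2* within both replicate numbers. The other settings turned no member's genotype sign.

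Between the replicate numbers 4044 genes were called, against 1685 with no filter, 1981 without the genotype term and 33 to 1434 with 1 library left out. Of the members 6 were called, against 0 to 2 with 1 library left out and 4 (*CDF5*, *COL1*, *COL2* and *SOC1*) with no filter or without the genotype term. A pseudocount of 0.1 or equal medians left 5, without *SVP*, and omitting the trend left all 6. No member's replicate difference changed sign in any of these fits. The fits with 1 library left out had no genotype term, so the genotype difference entered their spread. A lost call there therefore does not measure a weaker effect.

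With 2-fold in both pairs, 236 genes were higher and 25 lower in *ldl1 ldl2*, and 310 higher and 87 lower with a pseudocount of 0.1. At 1.5-fold there were 487 higher and 252 lower in *ldl1 ldl2*, 1977 higher and 1581 lower in replicate 2, and 2 members higher. Depth limits *FT* and *CO*, which rest on at most 5 and 31 estimated fragments in a library, and 2 libraries per genotype limit every comparison.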
